A study of Mus musculus with 5 samples.

Results

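The genes of cholesterol synthesis and of its transcriptional control were followed in single nuclei of mouse liver. The set held 27 of the 32285 genes in the count matrices and was taken by gene symbol, without use of measured values. It comprised 20 enzymes of the route from acetyl-CoA to cholesterol, counting Ggps1 of its isoprenoid branch. The others were 4 regulators of sterol sensing (Srebf2, Scap, Insig1 and Insig2), and Stard4, Rdh11 and Mylip. All libraries came from male wild-type C57BL6/J mice, which were given their diet at 10 to 12 weeks of age and kept on it for 5 months. In 3 libraries the mice ate regular chow, and in 2 they ate a diet with 2% cholesterol in which fat gave 40 and fructose 20 kcal%, made to cause MASH (metabolic dysfunction-associated steatohepatitis), a fatty liver disease with inflammation and injury. Nuclei were sorted from frozen liver and counted by unique molecular identifiers (UMIs) in droplet libraries that read the end of the transcript at its 3-prime side. The sources used here do not say whether a library was 1 mouse or a pool, so each p-value weighs a difference against the spread between these libraries. Tests between zones, and of diet effects between cell classes, compare within each library. Their p-values weigh against the spread of those within-library differences.

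Cells make cholesterol from acetyl-CoA through mevalonate, isoprenoid units, squalene and lanosterol. When sterols are scarce in the endoplasmic reticulum, SCAP carries the transcription factor SREBP2 to the Golgi, where it is cut and released, and the free factor enters the nucleus and raises the genes of the route. When sterols are plentiful, INSIG proteins hold SCAP back. The liver is a main site of this synthesis, and dietary cholesterol is known to lower it.

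SREBP2 binds sterol regulatory elements in promoters, where NF-Y, which binds CCAAT, and Sp1, which binds GGGCGG, are known to act beside it. The 250 bases before the RefSeq start (GRCm38.p6) were searched on both strands for TCACNCCAC, a sterol regulatory element, for CACNCCAC, a looser form that the first motif also holds, and for CCAAT and GGGCGG. A window was found for 23 of the 27 genes, and none for Fdps, Fdft1, Sqle and Stard4. CCAAT stood in the windows of 21 of the 23 genes, beside 37.5% of all 27025 genes with a window, and GGGCGG in those of 20, beside 35.4%. TCACNCCAC was found in 1 of the 23, Hmgcs1, beside 1.22% of all genes, and CACNCCAC in 3 (Acat2, Hmgcs1 and Insig1), beside 6.05%. The absence of a match says only that these letters are not in that window. The windows of Nsdhl, Ebp and Mvd are shown because these were the genes with the largest falls in MASH hepatocyte nuclei among those whose window lies outside the gene in both annotations used, and that of Hmgcs1 because it holds the sterol regulatory element and Hmgcs1 was not called. Capitals mark the motifs, and ATTGG and CCGCCC are CCAAT and GGGCGG on the other strand. The windows are chrX:72918271-72918520 on the plus strand for Nsdhl, chrX:8193513-8193762 on the minus strand for Ebp, chr8:122443423-122443672 on the minus strand for Mvd, and chr13:119690101-119690350 on the plus strand for Hmgcs1, each printed in the direction of transcription.
Nsdhl: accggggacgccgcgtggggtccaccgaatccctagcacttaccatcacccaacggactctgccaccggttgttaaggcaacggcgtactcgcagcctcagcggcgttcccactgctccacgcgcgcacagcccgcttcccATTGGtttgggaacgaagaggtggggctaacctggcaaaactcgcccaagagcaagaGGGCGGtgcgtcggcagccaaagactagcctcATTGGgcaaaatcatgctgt
Ebp: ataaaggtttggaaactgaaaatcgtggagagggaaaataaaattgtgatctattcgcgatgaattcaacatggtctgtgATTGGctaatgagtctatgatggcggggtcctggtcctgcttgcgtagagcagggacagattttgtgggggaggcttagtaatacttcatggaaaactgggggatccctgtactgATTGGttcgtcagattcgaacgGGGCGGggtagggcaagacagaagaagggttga
Mvd: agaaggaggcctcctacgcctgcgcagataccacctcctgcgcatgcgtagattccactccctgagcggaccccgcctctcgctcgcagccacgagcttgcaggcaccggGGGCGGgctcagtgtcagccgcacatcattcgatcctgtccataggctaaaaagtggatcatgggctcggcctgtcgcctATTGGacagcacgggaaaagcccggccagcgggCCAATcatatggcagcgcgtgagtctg
Hmgcs1: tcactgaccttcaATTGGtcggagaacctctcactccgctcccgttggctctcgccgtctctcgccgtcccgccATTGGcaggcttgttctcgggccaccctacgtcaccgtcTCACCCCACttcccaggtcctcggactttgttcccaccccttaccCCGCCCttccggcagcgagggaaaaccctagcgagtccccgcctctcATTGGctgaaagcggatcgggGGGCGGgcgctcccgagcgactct

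In these windows CCAAT stood at 2 places on the minus strand in Nsdhl, beginning 20 and 109 bases before the start, and GGGCGG once, 52 bases before it. Hmgcs1 held its sterol element from base 129 to base 137 before the start, with 3 copies of CCAAT in the same window. Among the genes with a window that passed the test described next, 10 of 10 windows held CCAAT, and among those that did not pass, 11 of 13 did. The other motifs went the other way: GGGCGG stood in 8 of 10 and 12 of 13, CACNCCAC in 0 of 10 and 3 of 13, and TCACNCCAC in 0 of 10 and 1 of 13. Fdps, Sqle and Stard4 also passed but had no window.

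Hepatocyte nuclei were those with at least 2000 UMIs and at least 1 UMI of Hnf4a, a hepatocyte transcription factor. Chow replicates 1, 2 and 3 gave 3827, 5908 and 6250 of them, and MASH replicates 1 and 2 gave 2339 and 2225, with medians of 3858 to 5352 UMIs per nucleus and sums of 13157816 to 34633404 UMIs. These were 48.0%, 51.0% and 62.4% of the nuclei left after filtering in chow, and 20.3% and 21.4% in MASH. Any pair of libraries shared 23 to 48 barcodes, at most 0.399% of the smaller library. Correlations of log2 levels over all genes were 0.947 to 0.971 among chow libraries, 0.982 between MASH libraries and 0.873 to 0.916 across diets. In a clustering of all nuclei the libraries stood apart. A cluster led by Rgs16 and Themis held 4894 and 4792 nuclei of MASH replicates 1 and 2 but 24, 2 and 0 of the chow replicates, so the diets lay in different clusters. Within chow, a cluster led by the acute-phase genes Saa2 and Saa1 held 8178 nuclei of replicate 3 beside 69 and 66 of replicates 1 and 2. One led by Lpin1 held 7716 nuclei of replicate 2 beside 845 and 168 of replicates 1 and 3. One led by Cyp4a genes held 2339 of replicate 1 and 1061 of replicate 2. The summed level of 8 hepatocyte markers in these nuclei was 11254 to 15499 CPM (UMIs scaled to a common total) in chow and 7302 to 8292 CPM in MASH. The summed markers of cholangiocytes were at 34.7 to 77.6 CPM in chow and 244 to 342 CPM in MASH, and those of T cells at 1.93 to 6.79 and 114 to 128 CPM. Spp1 gave most of the first sum in MASH, and the other 6 markers were at 26.4 to 67.8 CPM in chow and 82.3 to 104 CPM in MASH. Themis gave most of the second, at 105 and 121 CPM in MASH, and the other 7 T cell markers were at 1.02 to 3.29 CPM in chow and 7.18 to 8.97 CPM in MASH. Stellate markers summed to 75.6 to 98.4 CPM in chow and to 199 and 220 CPM in MASH. Macrophage markers summed to 34.7 to 47.4 CPM in chow and to 164 and 70.4 CPM in MASH. Endothelial markers overlapped, at 87.8 to 285 CPM in chow and 188 and 173 CPM in MASH. So did B cell markers, at 13.6 to 76.2 CPM and 14.7 and 13.3 CPM. The part of these differences in the results below was not tested.

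The first comparison asked how the route differed between diets in hepatocyte nuclei. Counts were summed per library, scaled with TMM and tested with edgeR over 15142 genes, with calls made below an adjusted p of 0.05. In MASH 13 of the 27 genes fell and none rose, beside 3.98% of all genes tested that were called lower. The median log2 fold change was -1.03 over the 27 genes and -0.01 over all genes, and 24 of the 27 values were negative. All 3 chow libraries exceeded both MASH libraries for 19 genes, the reverse held for 1, and the groups overlapped for 7. Without TMM scaling these counts were 14, 2 and 11, with Fdft1, Lss, Lbr, Srebf2 and Insig1 no longer apart, and the log2 values of Hmgcs1, Ggps1, Lbr and Insig2 turned positive. The share of all genes whose levels lay apart between diets was not counted, with or without scaling. The calls were 2 of 5 genes at the head of the route, 2 of 3 isoprenoid genes, 1 of 3 around squalene, 6 of 9 in the late steps, none of the 4 regulators and 2 of the other 3. The 13 calls became 5 without chow replicate 2 and 2 (Idi1 and Nsdhl) without either MASH library, where the lone MASH library is assumed to vary like the chow libraries, and 8 when totals were used without TMM.

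**Figure D1:**
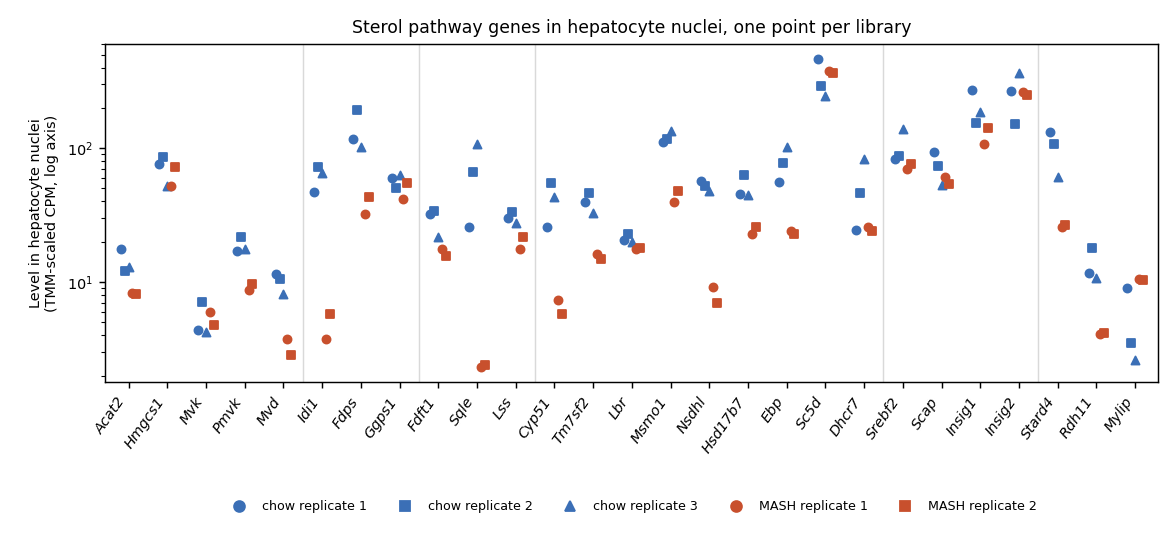
Level of each gene in hepatocyte nuclei on a log axis in TMM-scaled CPM, one point per library (3 chow in blue, 2 MASH in red), in the order of the route, with grey lines between groups of steps. MASH points lie below all chow points for 19 genes, by the widest gap at Sqle and Idi1, and overlap the chow points for 7, among them Hmgcs1, Sc5d and Insig2. The share of all genes that lay apart in this way was not counted.

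At the head of the route, 2 of 5 genes fell. Levels in hepatocyte nuclei and their zones are TMM-scaled CPM unless said otherwise. Acat2, a thiolase that joins acetyl-CoA units, was at 17.5, 12.1 and 13.0 CPM in chow replicates 1, 2 and 3 and at 8.27 and 8.09 CPM in MASH replicates 1 and 2. These groups did not overlap, but the log2 fold change of -0.80 (SE 0.29) missed the threshold (adjusted p = 0.106). Hmgcs1, which makes HMG-CoA, was at 76.2, 85.3 and 52.2 CPM in chow and at 52.3 and 71.9 CPM in MASH. Chow replicate 3 was as low as MASH replicate 1, and the interval of the log2 difference ran from -0.87 to 0.47 (adjusted p = 0.673). Mvk, mevalonate kinase, had few counts, at 4.38, 7.12 and 4.25 CPM in chow and 5.95 and 4.76 CPM in MASH. Its groups overlapped, with a log2 fold change of 0.03 (SE 0.38). For Pmvk, the kinase that follows, levels were 17.1, 21.6 and 17.6 CPM in chow and 8.75 and 9.63 CPM in MASH. It fell by 1.03 on the log2 scale (SE 0.26, adjusted p = 0.0444), close to the threshold. Mvd, the decarboxylase that yields isopentenyl diphosphate, went from 11.5, 10.6 and 8.20 CPM in chow to 3.76 and 2.85 CPM in MASH. It fell by 1.61 (SE 0.34, adjusted p = 0.0271), and the lowest chow library was still above both MASH libraries.

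Of the isoprenoid genes, 2 of 3 fell. Idi1, which turns isopentenyl into dimethylallyl diphosphate (ENSMUSG00000058258, chr13:8885501-8892451, plus strand, GRCm38), was at 47.0, 72.8 and 65.3 CPM in chow replicates 1, 2 and 3 and at 3.76 and 5.77 CPM in MASH replicates 1 and 2. Every chow library was far above both MASH libraries, and Idi1 fell 12.9-fold (log2 -3.69, SE 0.34, adjusted p = 0.00317). It passed the test in 16 of 16 alternative settings. Fdps, farnesyl diphosphate synthase, was at 118, 193 and 101 CPM in chow and at 32.2 and 43.5 CPM in MASH. The groups did not overlap, and Fdps fell by 1.86 (SE 0.36, adjusted p = 0.0209). Ggps1 makes geranylgeranyl diphosphate, used to anchor proteins in membranes and not for sterols. It was at 60.0, 50.6 and 63.3 CPM in chow and 41.4 and 54.9 CPM in MASH, so that MASH replicate 2 lay within the chow range (log2 -0.27, SE 0.24, adjusted p = 0.474).

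The widest difference of all was at squalene. Fdft1, which makes squalene, was at 32.3, 33.7 and 21.6 CPM in chow and at 17.7 and 15.6 CPM in MASH, without overlap and short of the threshold (log2 -0.81, SE 0.28, adjusted p = 0.0977). Sqle, the oxygenase that opens the way from squalene to sterols (ENSMUSG00000022351, chr15:59315077-59331192, plus strand), was at 25.8, 66.5 and 107 CPM in chow and at 2.32 and 2.38 CPM in MASH. These rest on 582, 1680 and 2796 UMIs in chow and on 34 and 40 in MASH. The chow libraries were spread widely, with replicate 3 highest and replicate 1 lowest, yet all lay above MASH, and Sqle fell 28.2-fold (log2 -4.82, SE 0.65, adjusted p = 0.00778). It was not called when either MASH library was left out, with adjusted p reaching 0.0675. Lss, which closes squalene epoxide to lanosterol, was at 30.2, 33.1 and 27.6 CPM in chow and 17.7 and 21.8 CPM in MASH. The groups were separate, but the test was not passed (log2 -0.62, SE 0.24, adjusted p = 0.124).

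In the late steps, from lanosterol to cholesterol, 6 of 9 genes fell. Cyp51, the lanosterol demethylase, was at 25.7, 54.8 and 43.3 CPM in chow and at 7.39 and 5.77 CPM in MASH. It fell by 2.65 on the log2 scale (SE 0.39, adjusted p = 0.0096), with chow replicate 1 nearest to MASH. Nsdhl, a dehydrogenase of sterol demethylation (ENSMUSG00000031349, chrX:72918557-72958514, plus strand), was tight within each diet, at 57.0, 51.8 and 48.1 CPM in chow and at 9.23 and 6.96 CPM in MASH. It fell by 2.69 (SE 0.26, adjusted p = 0.00331) and, like Idi1, passed in 16 of 16 alternatives. Msmo1, the methyl sterol oxidase, was at 111, 118 and 135 CPM in chow and 39.6 and 47.6 CPM in MASH, a fall by 1.48 (SE 0.24, adjusted p = 0.0144) with no overlap. Ebp, the sterol isomerase, was at 56.1, 76.9 and 101 CPM in chow and at 24.1 and 22.8 CPM in MASH. It fell by 1.74 (SE 0.31, adjusted p = 0.0168), with the same order of chow libraries as Sqle.

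Tm7sf2, a sterol reductase, was at 39.5, 46.3 and 32.7 CPM in chow and at 16.3 and 14.9 CPM in MASH and fell by 1.34 (SE 0.26, adjusted p = 0.0209). The gene overlaps Vps51 on the same strand, so that reads of the overlap may be assigned to either. Hsd17b7, a ketoreductase of the same demethylation complex as Nsdhl, was at 45.2, 62.9 and 44.5 CPM in chow and at 22.8 and 25.9 CPM in MASH. It fell by 1.06 (SE 0.26, adjusted p = 0.0395), and the groups were separate. Lbr, a lamin receptor that carries the same reductase activity as Tm7sf2, was at 20.7, 22.7 and 19.8 CPM in chow and at 17.6 and 18.0 CPM in MASH. These levels were close (log2 -0.25, SE 0.23, adjusted p = 0.497).

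The last enzymes did not pass the test. Sc5d, the lathosterol desaturase, was at 463, 291 and 247 CPM in chow and at 378 and 367 CPM in MASH. Both MASH libraries lay within the chow range, and the interval of the log2 difference ran from -0.63 to 0.95 (adjusted p = 0.780). Dhcr7, which completes cholesterol, was at 24.6, 46.1 and 83.3 CPM in chow and 25.8 and 24.0 CPM in MASH. Chow replicate 1 was level with MASH while replicate 3 was far above it, and the log2 fold change of -1.04 (SE 0.47) missed the threshold (adjusted p = 0.171). Without chow replicate 1 Dhcr7 was called, with an adjusted p of 0.0370.

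Summed over the 20 enzymes, Ggps1 included, the level was 1283, 1357 and 1238 CPM in chow and 734 and 774 CPM in MASH. Sc5d alone gave 36.1%, 21.4% and 20.0% of this sum in chow and 51.4% and 47.4% in MASH. Without Sc5d the sum was 820, 1066 and 990 CPM in chow and 357 and 407 CPM in MASH, with every chow library above both MASH libraries. These sums add UMIs of transcripts counted at 1 end and carry no length correction.

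**Figure D2:**
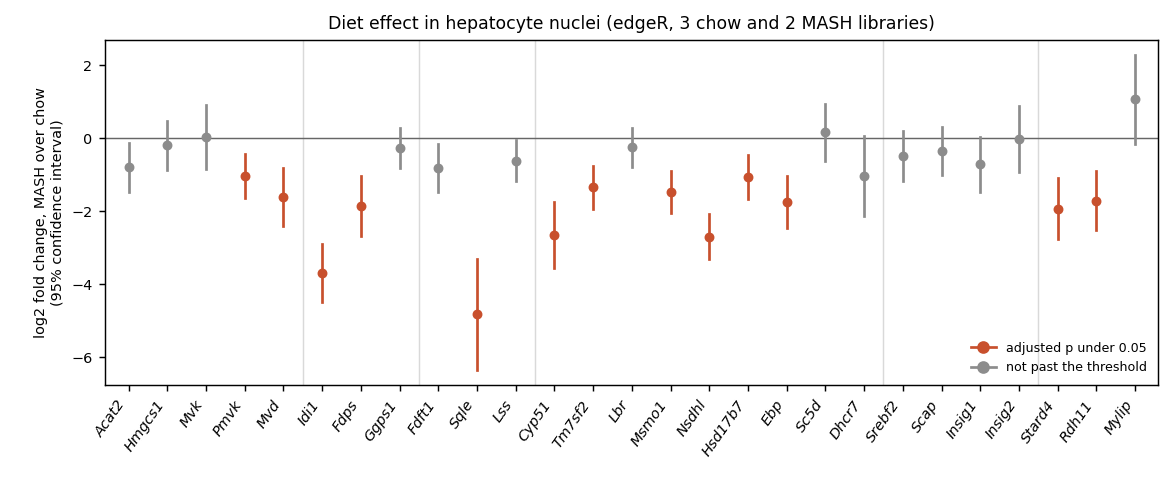
log2 fold change of MASH over chow in hepatocyte nuclei for each gene in the order of the route, with the 95% confidence interval from edgeR (3 chow and 2 MASH libraries). Genes with an adjusted p under 0.05 are in red, 13 in all and all below 0, and the remaining genes in grey.

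The regulators showed no call. Srebf2, which encodes SREBP2, was at 83.5, 86.8 and 140 CPM in chow and at 70.2 and 76.8 CPM in MASH. Each MASH library was below each chow library, and the test gave a log2 fold change of -0.49 with SE 0.30 (adjusted p = 0.287). Scap, its escort, was at 93.0, 74.0 and 52.7 CPM in chow and 60.9 and 54.0 CPM in MASH, with overlap (adjusted p = 0.431). Insig1, an SREBP2 target that retains SCAP, was at 273, 153 and 185 CPM in chow and at 108 and 141 CPM in MASH. Its groups did not overlap (log2 -0.71, SE 0.32, adjusted p = 0.174), and by totals without TMM they did. Insig2, the second retention protein, was at 266, 151 and 366 CPM in chow and 263 and 252 CPM in MASH. The chow libraries spanned the MASH values, and the interval of the log2 difference ran from -0.91 to 0.87.

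Of the remaining genes, Stard4 and Rdh11 fell. Stard4, which carries cholesterol between membranes, was at 132, 107 and 61.4 CPM in chow and at 25.8 and 26.7 CPM in MASH, a fall by 1.93 (SE 0.36, adjusted p = 0.0189). Rdh11, a retinol dehydrogenase that is also an SREBP target, was at 11.8, 18.1 and 10.7 CPM in chow and 4.10 and 4.16 CPM in MASH, a fall by 1.71 (SE 0.35, adjusted p = 0.0246). Neither overlapped between diets. Mylip, a ubiquitin ligase, is driven by the sterol sensor LXR and not by SREBP2. It was the single gene with both MASH libraries above chow, at 8.98, 3.48 and 2.60 CPM in chow and 10.5 and 10.4 CPM in MASH (log2 1.06, SE 0.52, adjusted p = 0.201).

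The share of hepatocyte nuclei with a UMI of each gene was a second view of the same counts, taken after each nucleus was thinned to 2000 UMIs. Every chow library exceeded both MASH libraries for 14 genes and fell short of both for 2 (Insig2 and Mylip), and the groups overlapped for 11, beside 14.0% of 11495 genes with MASH below chow. Without thinning these counts were 12, 3 and 12. Idi1 was found in 10.3%, 12.3% and 8.77% of chow nuclei and in 0.812% and 1.66% of MASH nuclei. Sqle was found in 5.28%, 11.1% and 14.1% in chow and in 0.513% and 0.854% in MASH. Both were thus rare in MASH nuclei of either library at equal depth, as they were without thinning, where Sqle was in 11.8%, 20.4% and 29.0% of chow and 1.37% and 1.66% of MASH nuclei.

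Msmo1 was found in 19.6%, 19.0% and 18.5% of thinned nuclei in chow and in 8.29% and 10.3% in MASH. Nsdhl was in 11.3%, 9.16% and 6.99% in chow and in 2.27% and 1.53% in MASH. For these, as for Idi1, Cyp51 and Ebp, the exact two-sided permutation test gave p = 0.1, the smallest that 3 against 2 libraries allow. At least 1 UMI of any of the 20 enzymes was present in 91.1%, 88.4% and 82.0% of chow nuclei and in 78.1% and 81.1% of MASH nuclei. At least 5 were present in 18.0%, 15.3% and 7.39% in chow and in 3.25% and 5.80% in MASH, so that chow replicate 3 stood nearest to MASH by this measure.

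The second comparison asked how the route lay along the liver lobule, where blood flows from the portal vein to the central vein and hepatocytes differ in their work by position. Within each library the nuclei were split into 3 equal zones (periportal, midlobular and pericentral) by a score of 8 pericentral minus 8 periportal markers, none of them a gene of the set. Between the periportal and pericentral zones, the 10 markers held out of the score differed as labelled in every library. The midlobular level did not always lie between. Without scaling, Cyp2c37 was at 4.55, 2.50 and 32.2 CPM from periportal to pericentral in MASH replicate 2. Slc13a3 was likewise lowest midlobularly in chow replicates 1 and 3. For the 16 score markers the difference between the end zones follows from the split. When the held-out markers were used as the score, 49.9% to 63.0% of nuclei in a library fell in the same zone and 1.80% to 8.90% in the opposite one. From 16.3% to 18.4% of nuclei lay within 0.1 SD of a cut, so a zone is a range and not a cell type. Each library was split by its own ranks, and whether a zone covers the same lobule positions in both diets was not tested. Median UMIs per nucleus were 4415, 3696.5 and 4484.5 in the periportal and 5480, 4020 and 5042 in the pericentral zone of chow, and 4821 and 5038 against 4879 and 5512 in MASH.

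In chow 12 of the 27 genes were lower in the pericentral than in the periportal zone and none was higher, beside 12.9% of 14221 genes called lower. The median log2 difference was -0.18 over the 27 genes and -0.01 over all genes. Sqle was at 43.3, 96.3 and 138 CPM in the periportal and at 12.4, 34.8 and 67.2 CPM in the pericentral zone of chow replicates 1, 2 and 3. It was lower pericentrally in each library, by 1.35 on the log2 scale (SE 0.10, edgeR adjusted p = 2.69e-08). Dhcr7 was at 31.6, 56.7 and 109 CPM periportally and at 16.1, 29.8 and 51.7 CPM pericentrally, 2.01-fold lower (adjusted p = 2.57e-08). The order of the 3 libraries was the same in both zones for both genes. Idi1 was at 63.4, 90.0 and 77.4 CPM periportally and 36.6, 51.5 and 49.0 CPM pericentrally (-0.75, adjusted p = 4.62e-07), and Stard4 at 162, 145 and 70.6 CPM and 106, 68.6 and 51.1 CPM (-0.73, adjusted p = 6.41e-06). The other 8 genes, Sc5d, Mvd, Rdh11, Lbr, Insig1, Lss, Cyp51 and Pmvk, had log2 differences from -0.46 to -0.34. With nuclei thinned to 2000 UMIs before scoring, 7 genes were called, beside 20% of all genes in either direction.

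In MASH the pattern was different: 7 genes were higher in the pericentral zone, beside 5.98% of all genes, and 1 was lower, beside 4.77%. Those higher were Hmgcs1 (log2 0.86, adjusted p = 1.36e-04), Hsd17b7 (0.80), Fdft1 (0.79), Msmo1 (0.74), Srebf2 (0.69, adjusted p = 1.42e-04), Fdps (0.61) and Insig2 (0.30). Hmgcs1 was at 34.3 and 53.4 CPM in the periportal and at 66.4 and 93.2 CPM in the pericentral zone of MASH replicates 1 and 2, while in chow it was at 65.3, 88.6 and 53.8 CPM and 85.0, 83.5 and 48.5 CPM. Chow replicate 1 was higher pericentrally and the other two chow libraries were not. Srebf2 was at 53.1 and 66.6 CPM periportally and at 96.2 and 96.4 CPM pericentrally in MASH, against 75.3, 79.1 and 130 CPM and 80.6, 84.4 and 149 CPM in chow. Sqle kept its periportal side, at 3.33 and 4.64 CPM against 0.868 and 0.722 CPM (-2.32, SE 0.56, adjusted p = 0.0108), on 16 and 25 UMIs against 4 in each library. Without either MASH library fewer genes were called, with 1 MASH library left. After thinning 2 were called, beside 5.55% of all genes in either direction.

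The zone difference itself differed between diets for 11 of the 27 genes, each with a higher pericentral to periportal ratio in MASH than in chow, beside 2.40% of genes called in that direction. The median of this interaction was 0.53 over the 27 genes and -0.01 over all genes. It was 1.02 for Idi1 (SE 0.26, adjusted p = 0.0284), 0.90 for Msmo1 (adjusted p = 0.00153), 0.82 for Hmgcs1 (adjusted p = 0.00373) and 0.47 for Insig1 (adjusted p = 0.00569). For Idi1 the log2 zone ratios were -0.78, -0.80 and -0.66 in the chow libraries, against 0.37 and 0.17 in MASH. The MASH ratios of Idi1 rest on 18 and 30 UMIs periportally and on 23 and 35 pericentrally. Its zone difference within MASH was not called (log2 0.27, edgeR adjusted p = 0.626). Msmo1 had ratios of 0.14, -0.27 and -0.34 in chow and 0.75 and 0.72 in MASH. The other genes called were Hsd17b7, Fdft1, Stard4, Fdps, Dhcr7, Srebf2 and Insig2. Over the 27 genes, the ratios of both MASH libraries were above those of all chow libraries for 20, below for 1 (Ggps1) and overlapping for 6, Sqle among them. The share of all genes whose zone ratios lay apart between diets was not counted. The 11 calls became 7 without chow replicate 2, 0 without MASH replicate 1 (11 at an unadjusted p under 0.05) and 1 when MASH replicate 2 was left out, these last with a lone MASH library, and 5 with the held-out markers as the score and 4 after thinning, all in the same direction.

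**Figure D3:**
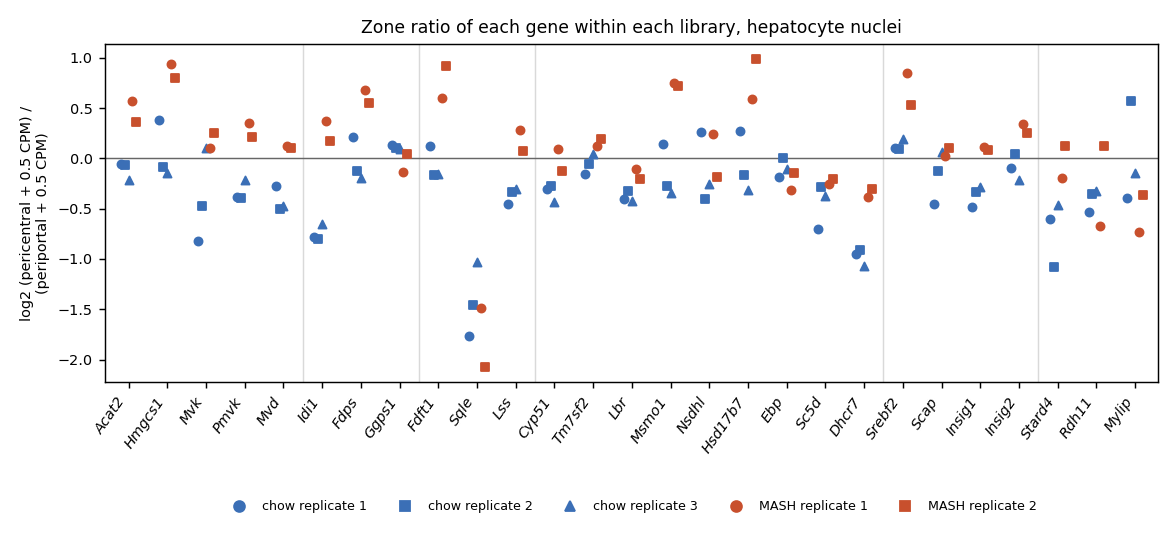
log2 ratio of the pericentral to the periportal zone of hepatocyte nuclei for each gene within each library, with 0.5 CPM added to both levels (chow in blue, MASH in red). MASH points lie above all chow points for 20 of the 27 genes, and the share of all genes apart in this way was not counted. Sqle lies between -2.07 and -1.03, lowest in every library except chow replicate 3, where Dhcr7 is at -1.07.

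Along 10 equal parts of the score, in CPM without scaling, Sqle went from 47.6, 102 and 111 CPM in the most periportal part to 11.8, 25.4 and 37.8 CPM in the most pericentral part of chow. In MASH it went from 6.55 and 6.35 CPM to 0.813 and 0.684 CPM. Srebf2 in MASH went the other way, from 55.7 and 66.7 CPM to 132 and 140 CPM, with values between that did not rise evenly. Msmo1 in MASH stayed between 29.1 and 56.5 CPM over the first 8 parts and reached 69.9 and 107 CPM in the last.

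**Figure D4:**
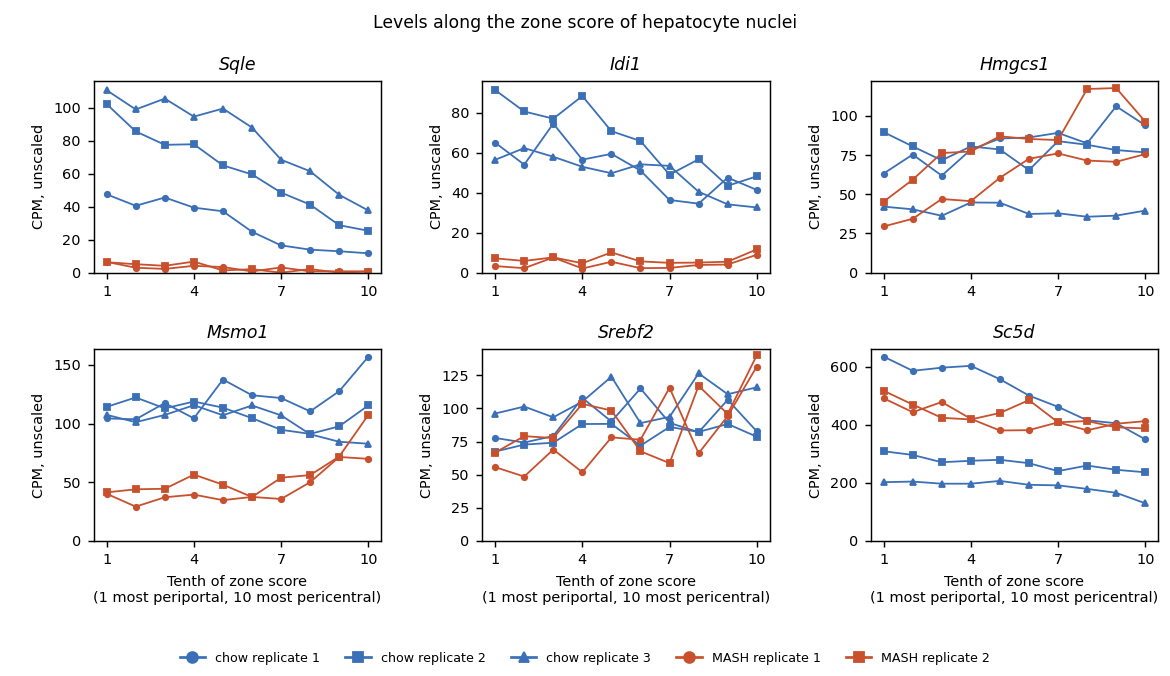
Level in CPM, without scaling, of 6 genes in 10 equal parts of the zone score of hepatocyte nuclei, from most periportal (1) to most pericentral (10), one line per library (chow in blue, MASH in red). Sqle declines from the first to the last part in each library, while Srebf2 ends highest in the last part in both MASH libraries, at 132 and 140 CPM.

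Diets were also compared within each zone. In the periportal zone 13 of the 27 genes fell in MASH, beside 3.53% of genes, in the midlobular zone 12, beside 3.27%, and in the pericentral zone 7, beside 2.79%. The medians were -1.19, -1.12 and -0.52, and near 0 over all genes in each. The 7 genes that fell pericentrally were Sqle (-5.55), Idi1 (-2.99), Nsdhl (-2.55), Cyp51 (-2.53), Ebp (-1.72), Fdps (-1.55) and Tm7sf2 (-1.14), all of which also fell in the other zones. Without Sc5d, the enzyme sum of the periportal zone was 854, 1162 and 1101 CPM in chow and 332 and 365 CPM in MASH, and that of the pericentral zone 813, 933 and 840 CPM in chow and 414 and 470 CPM in MASH. Every chow library was above MASH in both zones. When either MASH library was left out, no gene was called in the periportal or pericentral zone by edgeR, with 8 to 14 at an unadjusted p under 0.05, and at most 2 were called in the midlobular zone, while without chow replicate 2 the counts were 6, 6 and 4.

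MASH hepatocyte nuclei with at least 2 of Nrg1, Anxa2, Sox4, Gdf15 and Klf6, markers of disease-associated hepatocytes, were set beside the remaining MASH nuclei as a description. In CPM without TMM scaling, the enzyme sum was 794 against 852 CPM in replicate 1 (1210 and 1129 nuclei) and 908 against 929 CPM in replicate 2 (1107 and 1118 nuclei). The sum was thus slightly lower in nuclei with the markers in both libraries. Single genes went either way. Sc5d, the largest part of the sum, was at 403 against 446 CPM and at 427 against 445 CPM, and Hmgcs1 at 61.7 against 52.5 CPM and at 87.2 against 82.3 CPM. The sum without Sc5d was not compared. Median depth was higher in nuclei with the markers, at 5677.5 against 4179 UMIs and 6367 against 4554 UMIs.

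The third comparison set hepatocyte nuclei beside stellate-like, endothelial-like and macrophage-like nuclei, named from clusters after doublet removal. Stellate cells store vitamin A and make scar matrix, endothelial cells line the sinusoids, and macrophages clear particles from blood. There were 187 to 713 stellate-like, 190 to 590 endothelial-like and 95 to 1027 macrophage-like nuclei per library, with median depths of 840 to 1281.5 UMIs. A further cluster, led by Svep1 and Adamtsl2, passed for 8 stellate markers, but none was among its top 10 genes and it was left unnamed. It held 57, 1 and 7 nuclei of the chow replicates and 133 and 835 of the MASH replicates, which is 64.3% of the named and unnamed stellate-type nuclei together in MASH replicate 2, 15.6% in MASH replicate 1 and 0.508% to 12.0% in chow. A cluster led by Vwf, with 5 endothelial markers, was left out likewise, at 8.35% to 17.8% in chow and 23.9% in each MASH library. The results in these classes were not tested with those nuclei included. Hepatocyte RNA was present in all of them: the 8 hepatocyte markers summed to 9353 to 22124 CPM in chow and 3699 to 8633 CPM in MASH in stellate-like nuclei, with none at 0. Alb and Ttr gave most of this, and without them the sums were 2845 to 6842 CPM in chow and 1500 to 2827 CPM in MASH, against 8039 to 10530 and 5134 to 5366 CPM in hepatocyte nuclei. Hnf4a was at 27.9 to 109 CPM in chow and 19.3 to 21.96 CPM in MASH in stellate-like nuclei, against 381 to 501 and 264 to 286 CPM in hepatocyte nuclei. Endothelial-like and macrophage-like nuclei had similar sums (10587 to 25626 and 11518 to 24700 CPM in chow, 4836 to 11208 and 3950 to 9675 CPM in MASH). The part of this RNA in the values below was not tested.

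In CPM without scaling, most genes of the set overlapped between classes over libraries. Every library had Mylip higher in the other class than in hepatocyte nuclei for all 3 classes, and Lbr for stellate-like and endothelial-like nuclei. Mylip was at 9.80, 3.21 and 1.96 CPM in chow and 11.7 and 12.3 CPM in MASH hepatocyte nuclei, and at 311, 202 and 127 CPM and 198 and 330 CPM in endothelial-like nuclei. Srebf2 was lower in every library in all 3 classes, with 91.1, 80.0 and 106 CPM in chow and 78.0 and 91.0 CPM in MASH hepatocyte nuclei, and 44.1, 48.3 and 55.6 CPM and 19.9 and 38.5 CPM in stellate-like nuclei. Insig1 was lower in every library in stellate-like and endothelial-like nuclei, and so were Acat2 in the former and Lss in the latter. Since the classes were named from the same nuclei, these are descriptions with no test.

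**Figure D5:**
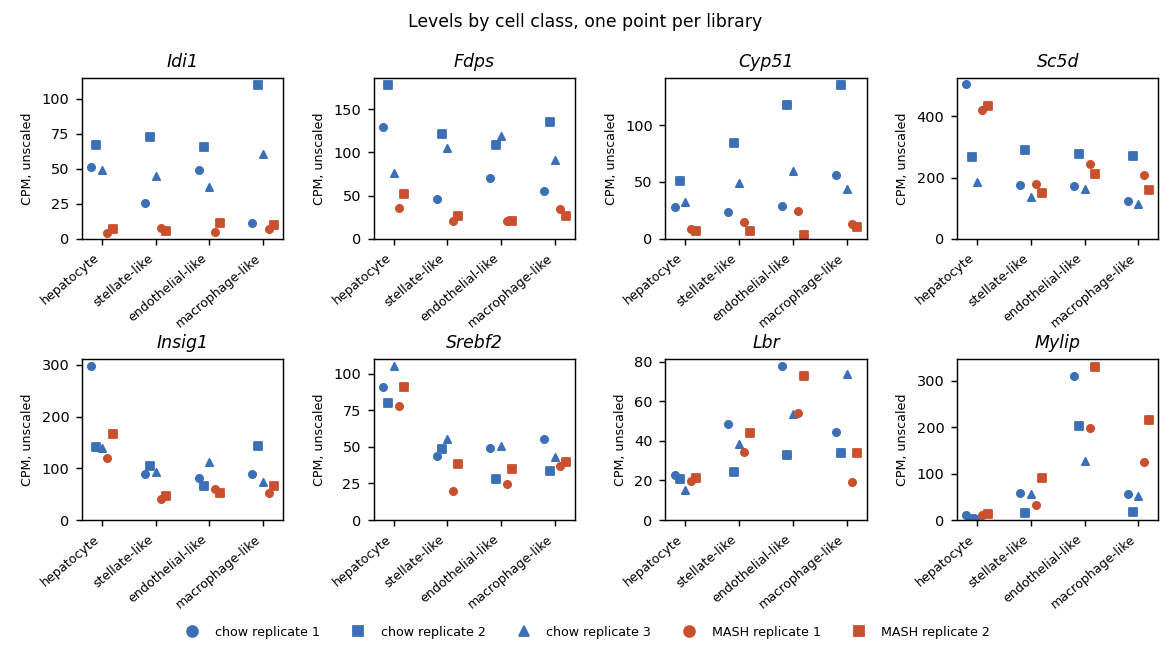
Level in CPM, without scaling, of 8 genes in hepatocyte nuclei and in 3 other classes of nuclei, one point per library (3 chow in blue, 2 MASH in red). Mylip lies higher and Srebf2 lower in each other class than in hepatocyte nuclei, and Idi1 and Fdps lie lower in MASH than in chow in each class. For Idi1 in macrophage-like nuclei the lowest chow point, 11.1 CPM in replicate 1, is 1 UMI, beside 10.1 CPM in MASH replicate 2.

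The diet effect was tested in each class over the genes with enough counts. Levels in these classes are CPM without scaling, and the log2 fold changes and their tests are with TMM. In stellate-like nuclei edgeR called 0 of 18 genes, beside 0.507% of genes called in either direction, with 10 at an unadjusted p under 0.05. DESeq2 called 3, beside 1.19%. The median log2 fold change was -1.24 over the 18 genes and -0.01 over all. Idi1 was at 25.5, 72.5 and 44.9 CPM in chow and at 7.32 and 5.26 CPM in MASH (-2.77, adjusted p = 0.104), and Sqle at 16.2, 36.2 and 49.2 CPM and 1.05 and 3.50 CPM (-3.94, adjusted p = 0.0826). Both lay lower in each MASH library than in any chow library. Over the MASH libraries together Idi1 rests on 10 UMIs and Sqle on 3, against 50 and 39 in chow.

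In endothelial-like nuclei 1 of 19 genes was called, beside 0.721% of genes, and the median was -1.02. Fdps was at 70.8, 108 and 119 CPM in chow and at 20.3 and 20.1 CPM in MASH. It fell by 2.29 (SE 0.47, adjusted p = 0.0439) without overlap, and the call was lost without chow replicate 2, chow replicate 3 or either MASH library. Idi1 was at 49.0, 65.7 and 36.7 CPM in chow and at 4.50 and 10.9 CPM in MASH (-2.61, adjusted p = 0.0635), on 54 UMIs in chow and 8 in MASH.

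In macrophage-like nuclei 1 of 12 genes was called, beside 2.19% of genes. Mylip was at 55.7, 16.8 and 52.1 CPM in chow and at 124 and 215 CPM in MASH. It rose by 1.99 on the log2 scale (SE 0.43, adjusted p = 0.0327), and the call was lost without any 1 chow library, without MASH replicate 2 and with nuclei chosen by a marker gate. Cyp51 was at 55.7, 135 and 43.4 CPM in chow and 13.1 and 10.1 CPM in MASH (-2.68, adjusted p = 0.0582). In chow replicate 1 the macrophage-like nuclei held 89774 UMIs, so that 1 UMI there equals 11.1 CPM.

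Whether the diet effect differed between each class and hepatocyte nuclei was tested in 1 model over 25 of the 27 genes. No gene was called for stellate-like, endothelial-like or macrophage-like nuclei by edgeR or DESeq2, beside 3.70%, 2.19% and 5.03% of all genes called by edgeR in either direction. At an unadjusted p under 0.05 edgeR had 2, 3 and 1 genes. The lowest adjusted p was 0.137, for Hmgcs1 in stellate-like nuclei, where the difference of log2 fold changes was -1.38 (95% interval -2.39 to -0.38). Thus no difference in diet effect between these classes was detectable at this depth.

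Genes next to the route were counted in hepatocyte nuclei from lists made for this purpose. Of 10 genes of SREBP1 and fatty acid synthesis, Srebf1, which encodes SREBP1, rose by 2.54 (SE 0.31, adjusted p = 0.00572), from 61.3, 73.1 and 39.4 CPM to 359 and 313 CPM. Elovl6, a fatty acid elongase, fell by 1.94 (SE 0.48, adjusted p = 0.0409). These calls stand beside 7.87% of all genes tested that were called higher, 3.98% lower and 11.8% in either direction. None of 10 genes of SREBP processing and sterol sensing was called by edgeR, with 3 at an unadjusted p under 0.05. Of 6 LXR targets, Abcg1, a sterol exporter, rose by 2.48 (SE 0.36, adjusted p = 0.00975).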

How the data were processed

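Single-nucleus RNA of mouse liver was measured in 3 chow and 2 MASH libraries, grouped by their titles. The authors deposited unnormalised UMI counts for every gene in every nucleus, made with Cell Ranger 8.0.1 on GRCm38 (submitters' processing notes); per the paper's methods intronic reads were left out, which lowers counts of unspliced RNA in nuclei. The genes followed and all gene and marker lists were chosen with earlier results of these data known.

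Nuclei with under 300 genes were removed. Scrublet (scanpy 1.11.5) called 0 to 3 doublets in a library. With this known, the highest scores were removed at 0.8% per 1000 nuclei. Classes were named from clusters (3000 variable genes, 15 components, resolution 0.5) by marker folds, with thresholds set after the data were seen. UMIs were summed per library and tested in edgeR 4.0.16 (R 4.3.3) by the quasi-likelihood test with TMM, filterByExpr and Benjamini-Hochberg adjustment over all genes tested, all two-sided. Zone tests used a model with the library as a block. The scripts were tested on simulated data. All 27 genes are named, and from each neighbouring list at most the 4 largest changes that passed. A further list of sterol genes is not reported here. DESeq2 1.42.0, other size factors, no count filter, Storey q-values, no TMM, doublets kept, under 5% mitochondrial UMIs, at least 4000 UMIs, clusters or marker gates, thinning, other zone markers, a replicate block and leaving out each library were tried. Coordinates are from GENCODE M21 and windows from RefSeq. The plan to show windows of called genes with TCACNCCAC found none, and the windows shown were chosen instead.

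The TMM factors ran from 0.754 to 1.19. The labels do not say whether the same replicate number links a chow and a MASH library. Deviations of same-numbered libraries from their diet means correlated at -0.0381 and -0.138. With 2 MASH libraries these deviations mirror each other, so each chow library correlates with them at opposite signs. These values therefore cannot decide whether libraries pair. Permutation tests of shares were exact.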

Additional observations from a re-analysis of the deposited data

Results flagged for a closer look

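For 11 genes the zone difference in hepatocyte nuclei differed between the diets, by edgeR's test of the difference itself with adjustment over 14221 genes. On the log2 scale, MASH minus chow, it was 1.02 for Idi1, 0.90 for Msmo1, 0.89 for Hsd17b7, 0.85 for Fdft1, 0.82 for Hmgcs1, 0.70 for Stard4, 0.66 for Fdps, 0.65 for Dhcr7, 0.55 for Srebf2, 0.47 for Insig1 and 0.40 for Insig2. All were positive, so that the pericentral zone stood higher against the periportal zone in MASH than in chow, and the zone ratios of both MASH libraries were above those of all chow libraries for each of these genes. The MASH ratios of Idi1 rest on 18 and 30 UMIs periportally and on 23 and 35 pericentrally.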

How the results depend on the processing

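In hepatocyte nuclei the count of genes called between diets was 13 with DESeq2, and 8 with library totals and no TMM, where the median of all genes moved to 0.31 and that of the set to -0.63, and it ranged from 2 to 15 when 1 library was left out. Of all genes, DESeq2 called 21% in hepatocyte nuclei, totals without TMM 11%, and leaving out 1 chow library 3.08% to 19.6%. In chow 7 genes were called between zones after thinning, beside 20% of all genes. In MASH 2 were called after thinning, and 2 to 9 with 1 library left out. For the zone by diet interaction 5 were called with the held-out zone markers, 4 after thinning and 0 to 11 with 1 library left out. Leaving out 1 library gave 0 to 15, 1 to 15 and 0 to 10 calls in the periportal, midlobular and pericentral zones. In stellate-like nuclei DESeq2 called 3, no count filter 9, the replicate block 2, and leaving out 1 library 0 to 4. In endothelial-like nuclei no filter gave 4, the marker gate 2, and leaving out 1 library 0 to 2. In macrophage-like nuclei DESeq2 called 3, no filter 5, the marker gate 0 of 7 genes tested, and leaving out 1 library 0 to 2. The stellate-like difference from hepatocyte nuclei gave 0 to 1. Settings with fewer libraries or counts test with less data, and the cause of the other shifts was not tested.

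The replicate number was used as a block only as an alternative, since the pairing is of numbers alone. It gave 14 calls in hepatocyte nuclei, beside 11.7% of all genes. Values near 0 changed sign in 5 genes besides Sc5d. Without TMM, Hmgcs1 was 0.098, Ggps1 0.060, Lbr 0.068 and Insig2 0.33. Mvk was -0.0066 with DESeq2, -0.0061 with other size factors, -0.085 with the replicate block and -0.16 with hepatocyte-like clusters. Insig2 was 0.35 with the replicate block, 0.017 with at least 4000 UMIs and 0.016 with hepatocyte-like clusters. With 1 library left out, Hmgcs1 ranged from -0.45 to 0.0099, Mvk from -0.15 to 0.27, Sc5d from -0.042 to 0.46 and Insig2 from -0.33 to 0.28. Over single genes and settings, 683 values kept their direction and side of the threshold, 135 lost the call, 6 gained it and 18 changed sign. Counts were lowest for Sqle in MASH hepatocyte nuclei, at 34 and 40 UMIs, which limits the precision of its fold.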

Other observations

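Across zones, Abcg5 and Abcg8, which send sterols into bile, were higher in the pericentral zone of chow hepatocyte nuclei, by 0.98 (edgeR adjusted p = 2.20e-07) and 1.08 (adjusted p = 3.38e-07) on the log2 scale.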
